A study of Mus musculus with 9 samples.

Results

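miR-486 is a microRNA of red cells and of striated muscle, and both of its strands were measured in small extracellular vesicles, membrane particles shed by cells, that were prepared from mouse serum. The tables hold 4 rows of miR-486 among 1064 known microRNAs, chosen by name: mmu-miR-486a-5p, mmu-miR-486b-5p, mmu-miR-486a-3p and mmu-miR-486b-3p. The a and b rows of each arm carried identical counts in all 9 libraries, so their reads cannot be assigned to the Mir486 or the Mir3107 gene, and the 4 rows are described as 2 arms. The libraries formed 3 groups of 3. HFD Sirt3 AKI libraries came from mice with adipose-specific Sirt3 overexpression on a high fat diet, HFD WT libraries from wild-type mice on that diet, and chow WT libraries from wild-type mice on chow. Sirt3 is a mitochondrial deacetylase. Its mRNA is not measured by this assay, and the labels used here give neither the promoter behind the overexpression, nor the age of the mice, nor whether mice were pooled.

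Chow WT libraries held 225002 to 306974 counts, against 1953935 to 2162009 in HFD WT and 1729416 to 2973432 in HFD Sirt3 AKI. These totals, also used for normalised CPM, count the identical a and b rows separately. With identical rows counted once they were 207139 to 280160, 1691784 to 1861219 and 1485196 to 2567925 in the same groups. A batch label sets HFD Sirt3 AKI replicates 2 and 3 apart from the other 7 libraries. The names of the HFD WT libraries carry a Sirt3 knock-in code that those of chow WT lack, so a difference of mouse line and the difference of diet cannot be told apart. The labels do not state separate animals, and p-values therefore measure only the spread between these samples, which may be technical. HFD Sirt3 AKI libraries spread most, with a biological coefficient of variation of 39.4%, against 13.6% in HFD WT and 10.2% in chow WT. The main fits share a single spread over the 3 groups for each microRNA. Their SE and p-values therefore do not carry the full spread of HFD Sirt3 AKI in comparisons with that group. HFD Sirt3 AKI replicate 2 stood apart in the hepatocyte microRNA miR-122-5p, with 25944 normalised CPM against 5676 and 11214 in replicates 1 and 3 of its group. Normalised CPM are counts per 1000000 of a library total adjusted with TMM, the trimmed mean of log ratios, a scaling that assumes most microRNAs are alike between libraries.

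MicroRNA precursors are hairpins from which one strand, the guide, is loaded into an Argonaute protein and the other, the passenger, is mostly discarded. The 5p strand of miR-486 is the guide and the 3p strand the passenger. In mouse both precursor genes lie within Ank1, which encodes the ankyrin of the red cell membrane skeleton: in the GENCODE annotation Mir486 is on the strand of Ank1 and Mir3107, which encodes miR-486b, is on the opposite strand, and neither overlaps an annotated Ank1 exon. Red cells lose their nucleus but keep microRNAs, of which miR-486-5p, miR-451a and miR-16-5p are among the most abundant, so serum values of these can follow both vesicle release and the lysis of red cells.

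The levels of miR-486 were set beside those of 7 other microRNAs abundant in red cells. Their mature sequences are shown because the ratios described below parted microRNAs that share a seed, the bases that pair with targets. Of 11 names looked up, 7 had a mature sequence in the RefSeq table for GRCm38.p6. Capitals mark the seed, bases 2 to 8 from the 5′ end.
miR-16-5p: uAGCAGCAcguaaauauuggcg
miR-15a-5p: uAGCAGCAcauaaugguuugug
miR-92a-3p: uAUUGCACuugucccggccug
miR-25-3p: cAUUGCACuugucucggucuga
miR-451a: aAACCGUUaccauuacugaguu
miR-144-3p: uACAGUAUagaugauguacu
miR-144-5p: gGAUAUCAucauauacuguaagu
miR-16-5p and miR-15a-5p have the same seed, and so have miR-92a-3p and miR-25-3p. miR-451a, miR-144-3p and miR-144-5p have seeds of their own, although they come from neighbouring hairpins on mouse chromosome 11. miR-451a is unusual in that Argonaute 2 and not Dicer cuts its hairpin.

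miR-486-5p was the second most abundant microRNA in all 9 libraries, behind miR-16-5p in each. With each set of identical rows counted once, it took 15.5%, 15.5% and 18.1% of the counts of the HFD Sirt3 AKI libraries. It took 15.8%, 15.4% and 15.2% in HFD WT, and 9.32%, 8.43% and 8.37% in chow WT. The exact (Clopper-Pearson) 95% binomial interval of the shallowest library, chow WT replicate 3, was 8.25% to 8.49%, so counting error was small beside the gap to the high fat diet libraries. Such intervals cover counting error alone, because PCR copies of a molecule could not be told from new molecules. The 3 HFD WT libraries all lay above the 3 chow WT libraries, and so did the 3 HFD Sirt3 AKI libraries, while HFD Sirt3 AKI and HFD WT overlapped. The mean share was 15.5 ± 0.324% in HFD WT and 8.71 ± 0.531% in chow WT (SD, n = 3 each; two-sided exact permutation p = 0.1, the smallest that 3 against 3 libraries allow). It was 16.4 ± 1.52% in HFD Sirt3 AKI, which gave an exact permutation p = 0.5 against HFD WT and p = 0.1 against chow WT. The next in rank was miR-451a, miR-93-5p or, in HFD Sirt3 AKI replicate 2, miR-21a-5p, and none of these took more than 7.08% of a library.

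**Figure D1:**
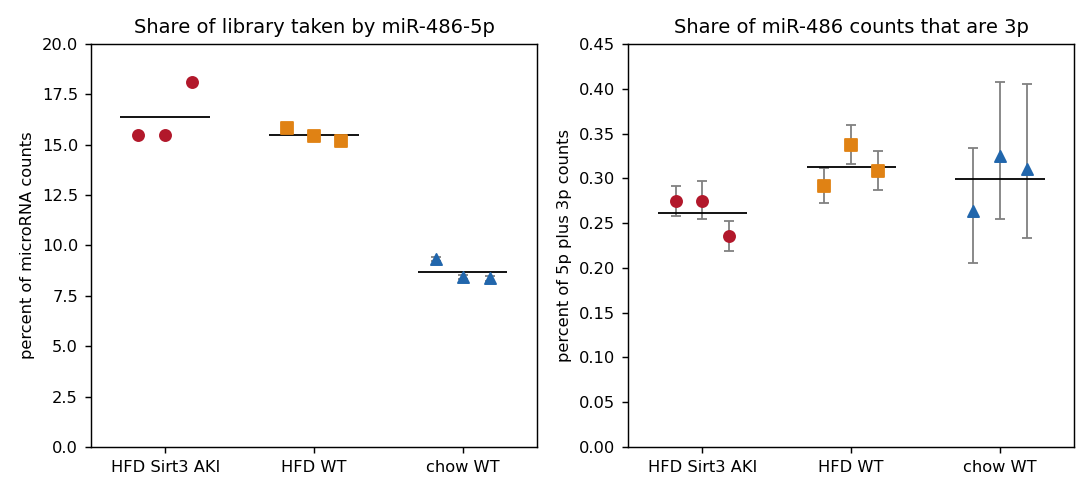
Left, percent of all microRNA counts that were miR-486-5p, identical rows counted once. Right, percent of the miR-486 counts of both arms that were the 3p strand. Each point is 1 library, vertical bars are exact 95% binomial intervals (hidden by most points on the left) and horizontal lines are means of 3 libraries. On the left the 3 chow WT libraries lie at 8.37% to 9.32% and the other 6 at 15.2% to 18.1%; on the right all libraries lie between 0.235% and 0.337%.

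On the TMM scale, miR-486-5p stood at 163789, 175971 and 170456 normalised CPM in HFD WT and at 66544, 59266 and 57912 normalised CPM in chow WT. The lowest HFD WT library was 2.46 times the highest chow WT library. HFD WT thus stood higher by 1.47 on the log2 scale (SE 0.12, edgeR adjusted p = 8.11e-06). The passenger strand miR-486-3p had 478, 596 and 527 normalised CPM in HFD WT, from 794 to 915 counts a library. In chow WT it had 176, 193 and 180 normalised CPM, from 54 to 74 counts. It was higher in HFD WT by 1.54 on the log2 scale (SE 0.15, edgeR adjusted p = 1.63e-05). Calls were common in this comparison: 37.7% of the 414 microRNAs tested passed in either direction and 21.5% were higher in HFD WT. The fold change of miR-486-5p stood at the 94.0 percentile of all those tested. Sizes depended on the scaling. With library totals in place of TMM the log2 fold change of miR-486-5p was 0.74 and that of miR-486-3p 0.81, both still called, and the median over all tested microRNAs was -0.57, against 0.15 with TMM. Measured from that median, the difference of miR-486-5p was 1.32 with TMM and 1.31 with library totals. A change of scaling moves all log2 fold changes by nearly the same amount, so these values had to be close and are no separate check.

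In HFD Sirt3 AKI, miR-486-5p had 143199, 121688 and 168783 normalised CPM, all above the 57912 to 66544 of chow WT. It was higher than in chow WT by 1.24 on the log2 scale (SE 0.12, edgeR adjusted p = 1.86e-05). miR-486-3p had 394, 336 and 398 normalised CPM, against 176 to 193 in chow WT, and was higher by 1.04 on the log2 scale (SE 0.15, edgeR adjusted p = 2.56e-04). In that comparison 39.9% of microRNAs passed in either direction and 20.3% were higher in HFD Sirt3 AKI. In the larger batch alone HFD Sirt3 AKI has 1 library, and the spread comes from the other groups, although HFD Sirt3 AKI libraries spread most. A p-value or call from that fit therefore does not reflect the spread of HFD Sirt3 AKI. The log2 fold changes there were 1.43 for miR-486-5p and 1.31 for miR-486-3p. The smaller batch holds only HFD Sirt3 AKI libraries. With the batch label as a term, fold changes of HFD Sirt3 AKI therefore rest on replicate 1 too. The batch term and the larger batch alone are thus not separate checks. Both comparisons with chow WT share the chow WT libraries and are not independent of each other. In serum, fewer red cells or vesicles and less of a microRNA in each cannot be told apart.

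**Figure D2:**
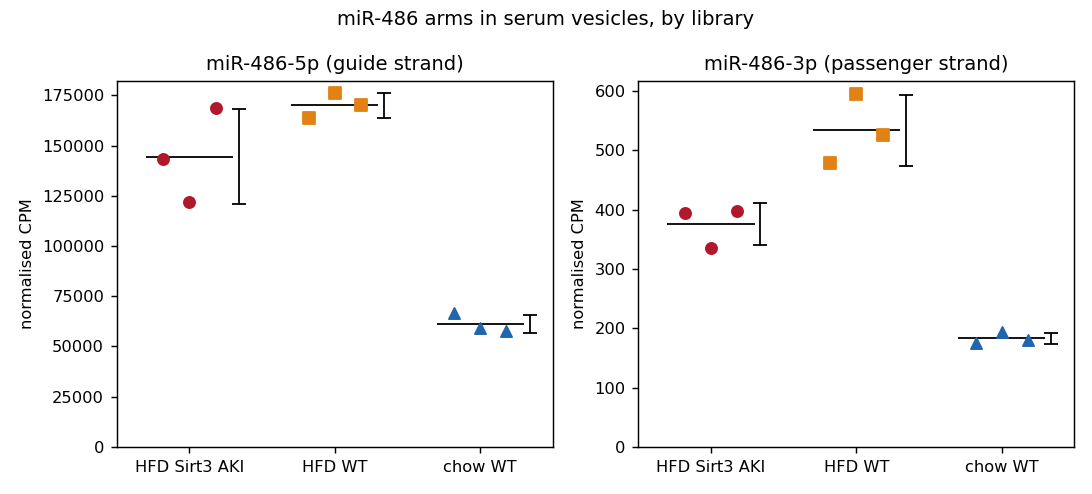
Normalised CPM of miR-486-5p (left) and miR-486-3p (right). Each point is 1 library, horizontal lines are group means and the bars beside them show the SD of 3 libraries. Both arms are lowest in chow WT; for miR-486-5p HFD Sirt3 AKI and HFD WT overlap, and for miR-486-3p the highest HFD Sirt3 AKI library, at 398, lies below the lowest HFD WT library, at 478.

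Between HFD Sirt3 AKI and HFD WT the guide strand did not pass the test. The mean of miR-486-5p was 144557 ± 23577 normalised CPM in HFD Sirt3 AKI and 170072 ± 6100 normalised CPM in HFD WT (SD, n = 3 each). Its log2 fold change was -0.23 (SE 0.12, edgeR adjusted p = 0.252). It was -0.35 without HFD Sirt3 AKI replicate 3 (edgeR adjusted p = 0.126), -0.11 in the larger batch alone, -0.094 without HFD Sirt3 AKI replicate 2, which held the lowest level, and 0.066 with library totals, so the sign depended on the scaling. The passenger strand was at 376 ± 34.9 normalised CPM in HFD Sirt3 AKI and 534 ± 59.1 normalised CPM in HFD WT. Its log2 fold change was -0.50, lower in HFD Sirt3 AKI (SE 0.14, edgeR adjusted p = 0.0495), close to the threshold. In this comparison 8.94% of microRNAs were called in either direction and 7.49% were lower in HFD Sirt3 AKI. The call of miR-486-3p was lost in 19 of 22 alternatives, among them the batch label as a term (-0.44, edgeR adjusted p = 0.400), the larger batch alone (-0.30), library totals (-0.20, edgeR adjusted p = 0.283) and the removal of any single library except HFD Sirt3 AKI replicate 1 (-0.58 to -0.39).

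Few reads came from the passenger strand. Of the miR-486 counts of both arms, 0.274%, 0.275% and 0.235% were 3p in HFD Sirt3 AKI, 0.291%, 0.337% and 0.308% in HFD WT, and 0.264%, 0.325% and 0.310% in chow WT. This corresponds to 362 to 424 counts of 5p for each count of 3p in HFD Sirt3 AKI, 295 to 343 in HFD WT and 307 to 378 in chow WT. The chow WT values rest on few reads, and the exact 95% interval of replicate 1 ran from 0.205% to 0.333%, which spans most of the other libraries. A ratio of arms within a library needs no scaling between libraries. The log2 ratio of 3p to 5p differed by 0.053 between HFD WT and chow WT (SE 0.11, limma adjusted p = 0.772 over 101 precursors), while 39.6% of precursors passed. It differed by -0.26 between HFD Sirt3 AKI and HFD WT (SE 0.11, limma adjusted p = 0.227), where 4.95% passed. Between HFD Sirt3 AKI and chow WT the difference was -0.20 (SE 0.11, limma adjusted p = 0.152), where 36.6% passed. In the larger batch alone, with 1 library of HFD Sirt3 AKI, the differences of that group were -0.18 from HFD WT and -0.13 from chow WT. Over the 9 libraries the log2 CPM of the arms had a Pearson r of 0.97, given as a description, since they share library, scaling and group.

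The other red cell microRNAs did not follow miR-486 as a group. In HFD WT over chow WT 3 of 7 were higher, 1 was lower and 3 did not pass, where 21.5% of all microRNAs were higher and 16.2% lower, with a median log2 fold change of 0.39 against 0.15 over all microRNAs tested. In HFD Sirt3 AKI over HFD WT 3 of 7 were lower and 4 did not pass, where 7.49% of all microRNAs were lower and 1.45% higher, with a median of -0.58 against -0.021. In HFD Sirt3 AKI over chow WT 3 were higher, 2 were lower and 2 did not pass, where 20.3% of all microRNAs were higher and 19.6% lower, with a median of -0.072 against 0.058. These counts moved with single libraries and settings. Without HFD Sirt3 AKI replicate 2, 5 of 7 were higher in HFD WT over chow WT, and the number ran from 2 to 5 over the alternatives. Without HFD Sirt3 AKI replicate 1, 5 of 7 were lower in HFD Sirt3 AKI over HFD WT, and the number was 0 with the batch label as a term or with only the groups compared. The summed level of the 7 ran from 183356 to 304190 normalised CPM in HFD Sirt3 AKI, from 323721 to 391258 in HFD WT and from 177307 to 188314 in chow WT. As a share of counts it was 23.4% to 32.9%, 31.3% to 34.5% and 25.2% to 27.1% in the same groups. miR-16-5p was the largest part of the sum in every library.

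miR-92a-3p and miR-25-3p, which derive from the related miR-17 to miR-92 and miR-106b to miR-25 clusters, were higher in both high fat diet groups than in chow WT. miR-92a-3p had 20794 ± 3669 normalised CPM in HFD Sirt3 AKI, 16176 ± 2062 in HFD WT and 3566 ± 292 in chow WT (SD, n = 3 each), a log2 difference from chow WT of 2.54 in HFD Sirt3 AKI and 2.18 in HFD WT (edgeR adjusted p = 1.06e-06 and 4.47e-06). miR-25-3p had 26175 ± 5208 normalised CPM in HFD Sirt3 AKI, 32432 ± 1579 in HFD WT and 12547 ± 1954 in chow WT. Its log2 fold changes were 1.37 in HFD WT over chow WT (edgeR adjusted p = 6.02e-05) and 1.06 in HFD Sirt3 AKI over chow WT (edgeR adjusted p = 3.81e-04), near those of miR-486-5p. miR-16-5p, a repressor of cell cycle genes, was higher in HFD WT than in chow WT by 1.08 (edgeR adjusted p = 5.94e-04), a call that library totals did not keep (0.35, edgeR adjusted p = 0.0589). Its log2 difference of 0.51 between HFD Sirt3 AKI and chow WT (edgeR adjusted p = 0.0387) lost its call in 14 of 22 alternatives, among them the removal of any chow WT library, HFD WT replicate 2 or 3 or HFD Sirt3 AKI replicate 1 or 3 (0.36 to 0.57).

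The cluster of miR-451a and miR-144 is switched on by GATA1 during red cell maturation. In the TMM fit of all 9 libraries by group, none of miR-451a, miR-144-3p and miR-144-5p was called higher in a high fat diet group than in chow WT. miR-451a had 39530, 22362 and 34172 normalised CPM in HFD Sirt3 AKI, 45146, 72673 and 52532 in HFD WT, and 50565, 38950 and 40123 in chow WT. HFD WT and chow WT overlapped, and its log2 fold change of 0.39 between them did not pass (SE 0.22, edgeR adjusted p = 0.199). It was -0.34 with library totals, and it passed without HFD Sirt3 AKI replicate 2 (0.50, edgeR adjusted p = 0.0130). It was lower in HFD Sirt3 AKI than in HFD WT, at a log2 difference of -0.83 (SE 0.22, edgeR adjusted p = 0.0488), a call lost in 15 of 22 alternatives. Among these were the larger batch alone (-0.38), the batch label as a term (-0.52, edgeR adjusted p = 0.438) and the removal of any chow WT library, HFD WT replicate 2 or 3 or HFD Sirt3 AKI replicate 3 (-0.87 to -0.60). miR-144-5p had 582, 383 and 418 normalised CPM in HFD Sirt3 AKI, 1042, 1168 and 985 in HFD WT, and 1917, 1604 and 1941 in chow WT. The 3 groups did not overlap. It was lower in HFD WT than in chow WT, at a log2 difference of -0.77 (SE 0.17, edgeR adjusted p = 0.00453). It was also lower in HFD Sirt3 AKI than in HFD WT, at a log2 difference of -1.21 (SE 0.17, edgeR adjusted p = 0.00333), or -0.73 in the larger batch alone. These fold changes of miR-144-5p share the HFD WT libraries. miR-144-3p was lower in HFD Sirt3 AKI than in HFD WT, at a log2 difference of -1.19 (SE 0.18, edgeR adjusted p = 0.00432), or -0.94 in the larger batch alone. It had a log2 fold change of 0.18 between HFD WT and chow WT (edgeR adjusted p = 0.483). With the batch label as a term neither arm of miR-144 passed between HFD Sirt3 AKI and HFD WT. The log2 differences were -1.08 for miR-144-3p (edgeR adjusted p = 0.110) and -0.87 for miR-144-5p (edgeR adjusted p = 0.0821). These rest on the same HFD Sirt3 AKI library as the larger batch alone. Over the 22 alternatives the difference of miR-144-3p ran from -1.31 to -0.82 and that of miR-144-5p from -1.40 to -0.73, and each was called in 20. The alternatives include the larger batch alone, where a call does not reflect the spread of HFD Sirt3 AKI.

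**Figure D3:**
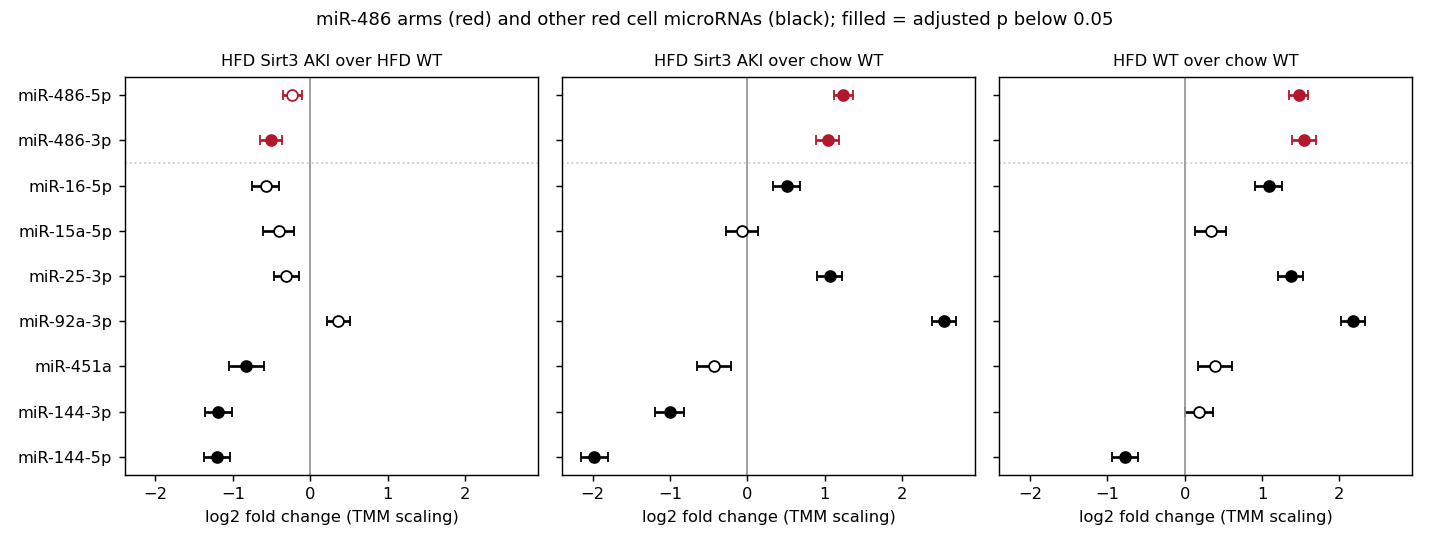
Log2 fold changes with TMM scaling of both miR-486 arms (red) and of 7 other red cell microRNAs (black) in 3 comparisons. Bars are SE and filled points have an edgeR adjusted p below 0.05. In HFD WT over chow WT the miR-486 arms lie at 1.47 and 1.54 and miR-144-5p at -0.77; in HFD Sirt3 AKI over HFD WT miR-451a, miR-144-3p and miR-144-5p lie at -0.83 to -1.21.

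Ratios within a library compare miR-486-5p with another microRNA whatever the scaling. For each count of miR-486-5p there were 0.276, 0.184 and 0.202 counts of miR-451a in HFD Sirt3 AKI, 0.276, 0.413 and 0.308 in HFD WT, and 0.760, 0.657 and 0.693 in chow WT. The chow WT libraries all lay above the other 6, and the high fat diet groups overlapped. The log2 ratio of miR-451a to miR-486-5p was lower in HFD WT than in chow WT, at a log2 difference of -1.10 (SE 0.19, limma adjusted p = 3.65e-04 over 408 microRNAs) and lower in HFD Sirt3 AKI than in chow WT, at a log2 difference of -1.69 (SE 0.19, limma adjusted p = 1.75e-05). Most microRNAs went the same way: 70.3% of the 408 were lower relative to miR-486-5p in HFD WT than in chow WT and 0.735% were higher, and the shares in HFD Sirt3 AKI over chow WT were 58.8% and 1.96%. The median log2 difference over all 408 was -1.40 in HFD WT over chow WT and -1.24 in HFD Sirt3 AKI over chow WT. All these ratios have the counts of miR-486-5p in common. The ratio of miR-451a differed by -0.59 between HFD Sirt3 AKI and HFD WT (SE 0.19, limma adjusted p = 0.102), or -0.25 in the larger batch alone, and passed without HFD Sirt3 AKI replicate 1 (-0.76, limma adjusted p = 0.0304). In that comparison 1.96% of microRNAs were lower relative to miR-486-5p and 3.68% higher.

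Among microRNAs that share a seed the ratios differed. miR-25-3p stayed at 0.166 to 0.198 counts for each miR-486-5p count in HFD Sirt3 AKI, 0.174 to 0.202 in HFD WT and 0.191 to 0.222 in chow WT, and its log2 ratio did not pass in any of the 3 comparisons (differences of -0.096, -0.082 and -0.18). The ratio of miR-92a-3p, with the same seed, was 0.138 to 0.152 in HFD Sirt3 AKI, 0.0869 to 0.104 in HFD WT and 0.0488 to 0.0660 in chow WT, with no overlap between groups. It was higher in HFD WT than in chow WT by 0.70 (SE 0.14, limma adjusted p = 9.53e-04) and higher in HFD Sirt3 AKI than in HFD WT by 0.60 (SE 0.14, limma adjusted p = 0.0320). The last call was lost in 9 of 15 alternatives, among them the larger batch alone (0.68) and the removal of HFD Sirt3 AKI replicate 3, chow WT replicate 2 or any HFD WT library (0.54 to 0.67). In HFD WT over chow WT the median log2 difference relative to miR-486-5p was -1.40 over all 408 microRNAs. miR-15a-5p was lower relative to miR-486-5p in that comparison, at a log2 difference of -1.15 (SE 0.20, limma adjusted p = 4.12e-04). Its seed partner miR-16-5p was lower, at a log2 difference of -0.40 (SE 0.16, limma adjusted p = 0.0499), a call that the removal of single libraries ended in 6 of 9 cases, namely chow WT replicates 2 and 3, each HFD WT library and HFD Sirt3 AKI replicate 3 (-0.46 to -0.31). miR-144-5p was lower relative to miR-486-5p, at a log2 difference of -2.25 in HFD WT over chow WT (SE 0.18, limma adjusted p = 2.06e-06). The difference was -0.98 between HFD Sirt3 AKI and HFD WT (SE 0.18, limma adjusted p = 0.0252). That call was lost in 7 of 15 alternatives, among them the larger batch alone (-0.62) and the removal of chow WT replicate 2 or any HFD WT library (-1.04 to -0.94).

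**Figure D4:**
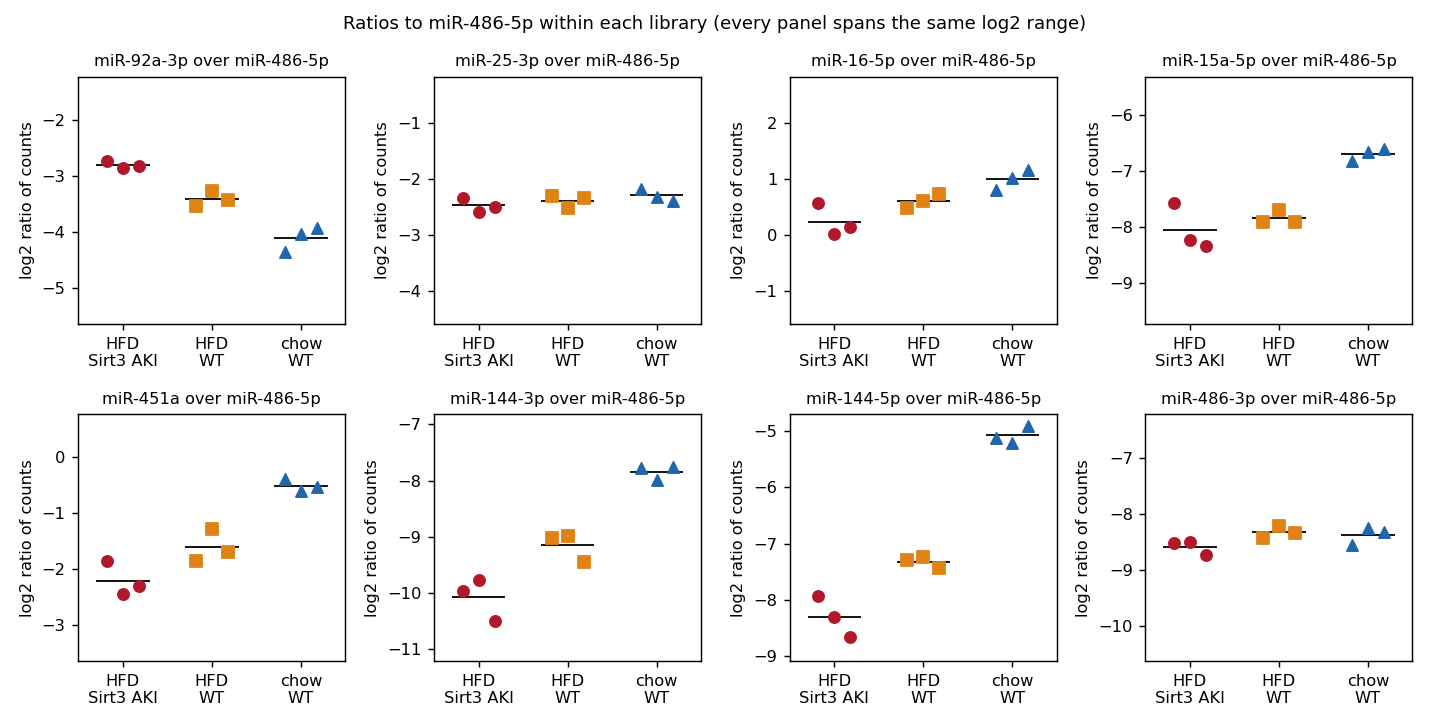
Log2 ratio of the counts of 7 red cell microRNAs and of miR-486-3p to those of miR-486-5p, within each library. Points are libraries and lines are group means; all panels span the same range on the log2 axis. miR-25-3p and miR-486-3p lie almost level across groups, miR-92a-3p is highest in HFD Sirt3 AKI, and miR-16-5p, miR-15a-5p, miR-451a, miR-144-3p and miR-144-5p are highest in chow WT.

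The ratio of miR-451a to miR-23a-3p, a microRNA little affected by red cell lysis, is widely used to look for lysis in serum. It was 7.06, 4.51 and 6.48 in HFD Sirt3 AKI, 7.74, 10.5 and 8.84 in HFD WT, and 8.92, 6.93 and 7.78 in chow WT, and HFD WT overlapped chow WT, while the 3 HFD Sirt3 AKI libraries lay below the 3 of HFD WT. The ratio of miR-486-5p to miR-23a-3p was 25.6, 24.6 and 32.0 in HFD Sirt3 AKI, 28.1, 25.5 and 28.7 in HFD WT, and 11.7, 10.5 and 11.2 in chow WT. It thus set chow WT apart where the ratio of miR-451a did not. Relative to miR-486-5p, miR-23a-3p was lower, at a log2 difference of -1.29 in HFD WT over chow WT (SE 0.13, limma adjusted p = 9.10e-06). The median over all 408 microRNAs there was -1.40. miR-23a-3p differed by 0.0091 between HFD Sirt3 AKI and HFD WT (limma adjusted p = 0.977). Against miR-191-5p, often used as a serum reference, miR-486-5p had mean ratios of 5.45 ± 0.0557 in HFD Sirt3 AKI, 5.66 ± 0.259 in HFD WT and 2.67 ± 0.188 in chow WT (SD, n = 3 each). Against miR-103-3p they were 14.4 ± 1.53, 13.6 ± 0.624 and 7.56 ± 0.565 in the same groups.

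Striated muscle is the other tissue known for miR-486. Of 7 muscle microRNAs listed, 4 were abundant enough to be tested: miR-1a-3p, miR-133a-3p, miR-133b-3p and miR-206-3p. Their summed level with the rest of the list was 8067 to 11964 normalised CPM in HFD Sirt3 AKI, 10335 to 11803 in HFD WT and 7081 to 8192 in chow WT. As a share of counts it was 0.872% to 1.52%, 0.921% to 1.14% and 1.02% to 1.15% in the same groups. The gap between HFD WT and chow WT thus depended on the scaling. In HFD WT over chow WT 2 of the 4 were higher and 2 did not pass, where 21.5% of all microRNAs were higher. In HFD Sirt3 AKI over chow WT 1 of the 4 was higher and 3 did not pass, a share near the 20.3% of all microRNAs that were higher. In HFD Sirt3 AKI over HFD WT their edgeR adjusted p ran from 0.337 to 0.669. miR-133a-3p, which is shared by heart and skeletal muscle, was higher in HFD WT than in chow WT by 0.82 (edgeR adjusted p = 2.52e-04), and relative to miR-486-5p it was lower, at a log2 difference of -0.65 (SE 0.14, limma adjusted p = 0.00203). For miR-1a-3p, miR-206-3p and miR-133b-3p the log2 fold changes were 0.24, 0.44 and -0.16, and the differences relative to miR-486-5p were -1.24, -1.03 and -1.65. Over all 408 microRNAs the median of such differences was -1.40, and 70.3% were lower relative to miR-486-5p. The heart and slow muscle microRNAs miR-208a-3p, miR-208b-3p and miR-499-5p had at most 1, 4 and 8 counts in a library. The part of muscle in the level of miR-486 was not tested.

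The 5 microRNAs whose log2 CPM ran most closely with that of miR-486-5p over the 9 libraries were miR-146a-5p (Pearson r 0.99), miR-25-3p (0.98), miR-223-3p (0.98), miR-361-5p (0.98) and miR-1843b-5p (0.98). These values are descriptions, since the points share libraries, scaling and groups. miR-146a-5p, which restrains Toll-like receptor signalling, had 5145 ± 771 normalised CPM in HFD Sirt3 AKI, 5416 ± 254 in HFD WT and 1986 ± 161 in chow WT (SD, n = 3 each). miR-223-3p, a microRNA of myeloid cells and platelets, had 4998 ± 686 in HFD Sirt3 AKI, 5709 ± 581 in HFD WT and 1891 ± 118 in chow WT. Both had the order of miR-486-5p, with high fat diet groups close together and above chow WT. That order follows from their choice by correlation in these same libraries and is no separate result. miR-451a ranked 203 by this measure among the tested microRNAs (Pearson r 0.16), and miR-144-5p had a Pearson r of -0.65.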

How the data were processed

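Small RNA of serum vesicles, precipitated with a commercial reagent per the labels' protocols, was sequenced in 9 libraries. The deposited tables hold the authors' whole-number read counts of 1064 known microRNAs, 1169 with predicted ones. The deposited TPM equal count over library total times 1000000 (largest difference 5.00e-05) and were used in an alternative. Per the submitters' processing notes, Bowtie 0.12.2 and build mm8 were used in a role left unnamed; trimming and counting steps are not given in the sources used. No coordinates are printed, since the references are of another build than the one noted. Positions in those references served only to place Mir486 and Mir3107 relative to Ank1 and to name chromosomes.

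In R 4.3.3, edgeR 4.0.16 (filterByExpr minimum count 10, TMM, quasi-likelihood, group means over 9 libraries) tested 414 microRNAs; Benjamini-Hochberg adjusted p below 0.05 was called. Every adjusted p printed comes from edgeR or limma as named. limma 3.58.1 with trend tested log2 ratios with a pseudocount of 0.5, of 3p to 5p in 101 precursors and of 408 microRNAs to miR-486-5p. DESeq2 1.42.0 served as an alternative. Shares were compared by exact permutation (scipy 1.17.1). Identical rows, with at least 20 counts, were counted once in shares (9 rows dropped); both miR-486-5p rows held 26.7% of deposited counts and stayed in the edgeR table. The main edgeR fit and the main limma fits of ratios were also run on simulated counts with known changes. The other steps were not. Other scalings, filters, tools, batch and replicate terms and the removal of each library were tried; those of the other red cell microRNAs were added after seeing the data. The members, lists and named microRNAs (arms, red cell partners, serum references, the 5 most alike by Pearson r) were chosen with earlier results of these data known. microRNAs with the miR-486 seed were not looked for.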

Additional observations from a re-analysis of the deposited data

How the results depend on the processing

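Higher levels of both miR-486 arms in either high fat diet group than in chow WT were called in all 22 alternatives (miR-486-5p 0.74 to 1.68 and 0.81 to 1.50 on the log2 scale). The miR-486-5p difference of HFD Sirt3 AKI from HFD WT turned positive with library totals (0.066), library totals without miR-486 (0.094) and limma on log2 TPM with pseudocounts of 1 (0.063) and 10 (0.063). The miR-486-3p call there was lost with DESeq2 size factors (-0.40), library totals (-0.20), totals without miR-486 (-0.17), DESeq2 (-0.40), no filter (-0.47), only the groups compared (-0.38), the batch term (-0.44), the larger batch alone (-0.30) and limma on TPM (-0.19 with either pseudocount), and ran from -0.58 to -0.39 without single libraries. The number of microRNAs called there was 37, against 24 with DESeq2 size factors, 61 with DESeq2, 3 with only the groups compared, 1 with the batch term, 23 in the larger batch and 13 to 102 without single libraries (102 without HFD Sirt3 AKI replicate 1). With library totals 12.3% of calls were higher in HFD WT over chow WT, against 57.1% with TMM, and 76.6% against 16.2% in HFD Sirt3 AKI over HFD WT. The causes were not tested.

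The 3p to 5p ratio of HFD WT over chow WT turned to -0.036 with a pseudocount of 5 and ran from -0.037 to 0.11 without single libraries, turning negative without chow WT replicate 1 and without HFD WT replicate 2 (-0.0051). In HFD Sirt3 AKI over chow WT it passed with a pseudocount of 5 (-0.29, limma adjusted p = 0.0288) and ran from -0.29 to -0.13 without single libraries, passing without chow WT replicate 1. miR-451a relative to miR-486-5p in HFD Sirt3 AKI over HFD WT ran from -0.76 to -0.42 without single libraries. The level of miR-451a in HFD WT over chow WT was -0.34 with library totals, -0.15 with totals without miR-486 and -0.36 with limma on TPM at either pseudocount; in HFD Sirt3 AKI over chow WT it was 0.070 in the larger batch alone. The share of miR-486-5p kept its direction in all alternatives, with a difference of HFD Sirt3 AKI from HFD WT of 0.0094 percentage points without HFD Sirt3 AKI replicate 3.

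The replicate numbers gave no pairing: deviations of same-numbered libraries had correlations of -0.080 to 0.19 (9 pairs), against -0.22 to 0.15 for other pairs. With the replicate block, 31 microRNAs were called in HFD Sirt3 AKI over HFD WT, miR-486-3p was not (-0.50, edgeR adjusted p = 0.0890), nor were miR-451a (-0.85, edgeR adjusted p = 0.0590) and the ratios to miR-486-5p of miR-144-3p (-0.93, limma adjusted p = 0.0657) and miR-92a-3p (0.60, limma adjusted p = 0.0657), and in HFD WT over chow WT that of miR-16-5p (-0.40, limma adjusted p = 0.0795). Depth limited miR-486-3p in chow WT, with at most 74 counts a library.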
